A study of Mus musculus with 28 samples.

Results

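The immunoproteasome subunits are 5 genes, Psmb8, Psmb9, Psmb10, Psme1 and Psme2, chosen by symbol among the 55341 gene rows of the count tables. All 5 were found and all 5 passed the filter on low counts in every fit, where 17916 to 18521 genes were tested. Their RNA was measured by bulk RNAseq in 28 whole AB1-HA tumors, AB1-HA being a mouse mesothelioma line, grown under the skin of female BALB/c mice of 8 to 10 weeks (BALB/c.AusBP in the sample labels). Each tumor came from a different mouse and was taken 7 days after treatment began.

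There were 6 groups. PBS tumors (n = 4) received vehicle only. ICB tumors (n = 5) received immune checkpoint blockade, 100 µg of anti-CTLA-4 in 1 dose and 100 µg of anti-PD-L1 in each of 3 doses. The 5-FU tumors (n = 5) received 75 mg/kg of the antimetabolite 5-fluorouracil and the Cisplatin tumors (n = 4) 6 mg/kg of the platinum drug. The 5-FU+ICB and Cisplatin+ICB tumors (n = 5 each) received a drug together with the antibodies. All tumors carry the HA antigen of the line, and a whole tumor holds the tumor cells and every host cell that has entered it, so fewer cells of a type and less RNA per cell cannot be told apart.

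The proteasome degrades ubiquitin-tagged proteins in a barrel whose catalytic work is done by Psmb5, Psmb6 and Psmb7 in most cells. Interferon gamma induces Psmb8, Psmb9 and Psmb10, which take the places of Psmb5, Psmb6 and Psmb7 in newly built barrels and change which peptides are cut. Psme1 and Psme2 encode the alpha and beta subunits of PA28, a cap that opens the barrel and is induced by the same cytokine. The resulting peptides are loaded onto MHC class I molecules for recognition by CD8 T cells, and cells of blood origin carry the induced subunits even without interferon.

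Total counts per tumor ran from 23541733 to 33950805. A pair of tumors stood apart from their groups. Cisplatin+ICB replicate 1 had a median correlation of 0.845 with the other tumors of its group over 18521 genes. 5-FU+ICB replicate 5 was next lowest at 0.919, with mitochondrial genes at 16.1% of its counts against 1.03% to 6.80% in the other tumors, and its correlation with replicate 2 was 0.830. Values without these tumors, an alternative chosen after seeing the data for the gene lists and group means, are given beside several of the results that they moved. Of the 7 mesothelial and keratin markers examined, 5 passed the filter and Upk3b was at or near 0 in every group.

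Psmb8 (chromosome 17, 34197721 to 34201454, plus strand, GRCm38) and Psmb9 (chromosome 17, 34181987 to 34187764, minus strand) lie 9956 bases apart in the MHC, with Tap1, a subunit of the peptide transporter that feeds class I molecules, between them. The Psmb9 and Tap1 annotations overlap by 212 bases on opposite strands, and reads from such a stretch cannot be told apart without strand. Psmb10 is alone on chromosome 8 (105935735 to 105938444, minus strand). Psme1 (chromosome 14, 55578123 to 55581529, plus strand) and Psme2 (chromosome 14, 55587441 to 55591113, minus strand) are separated by 5911 bases. Other transcripts that overlap a member were scarce: Gm20496 over Psmb8 reached 0.371 CPM (counts scaled to the library total with TMM factors over all 28 tumors) at most, Gm16156 over Psmb10 reached 0.319 CPM and Emc9 over Psme1 reached 7.00 CPM.

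Sequences before the start are shown for the 3 catalytic subunits, which lie on 2 chromosomes. RefSeq start sites matched all 5 members, and each sequence below is the 250 bases before the RefSeq start on GRCm38.p6, written 5′ to 3′ along the gene's strand, with motif matches in capitals. They lie at chr17:34197945-34198194 (plus), chr17:34187331-34187580 (minus) and chr8:105938393-105938642 (minus). The RefSeq starts differ from the annotated gene starts given above. They lie 474 bases inside the annotated gene for Psmb8, 434 for Psmb9 and 52 for Psmb10, so that the first 2 windows lie wholly within the gene, and the bases before the annotated starts were not searched.
Psmb8: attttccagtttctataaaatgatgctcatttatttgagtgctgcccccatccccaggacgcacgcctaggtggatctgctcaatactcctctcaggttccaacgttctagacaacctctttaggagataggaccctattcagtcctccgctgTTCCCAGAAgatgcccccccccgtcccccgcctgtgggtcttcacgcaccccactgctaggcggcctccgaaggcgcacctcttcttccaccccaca
Psmb9: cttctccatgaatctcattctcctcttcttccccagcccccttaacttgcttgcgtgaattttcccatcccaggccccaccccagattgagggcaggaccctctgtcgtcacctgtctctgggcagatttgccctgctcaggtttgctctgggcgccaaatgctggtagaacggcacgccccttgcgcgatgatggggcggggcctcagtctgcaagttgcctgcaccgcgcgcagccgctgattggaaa
Psmb10: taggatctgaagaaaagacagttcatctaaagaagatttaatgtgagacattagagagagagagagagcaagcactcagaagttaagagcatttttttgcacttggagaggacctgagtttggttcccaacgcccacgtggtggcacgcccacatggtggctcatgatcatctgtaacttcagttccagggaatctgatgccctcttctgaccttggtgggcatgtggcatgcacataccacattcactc
The letter patterns searched on both strands were TTCNNNGAA, the core of the gamma-activated site of interferon gamma responses, GAAANNGAA, part of the interferon-stimulated response element, and GGNNTTTCC, part of an NF-kB site. The gamma-activated pattern occurred once among the windows of the members, in that of Psmb8, as TTCCCAGAA starting 97 bases before the start. Of 32851 RefSeq promoter windows of the same length, 7.02% held this pattern, 7.13% held the interferon-stimulated pattern and 4.93% the NF-kB pattern. The latter 2 were found in no member's window, and the absence concerns these letters in these windows only.

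ICB alone gave the clearest change. All 5 members rose with ICB against PBS, the 3 catalytic subunits about 2-fold and the 2 PA28 subunits less. In PBS tumors, Psmb8 was at 226, 331, 203 and 229 CPM. In ICB tumors it was at 489, 558, 534, 496 and 584 CPM. The groups did not overlap, and the log2 change was 1.12 ± 0.26 (SE), with an adjusted p of 0.00290. This p, like that of every fold change given here, is from the quasi-likelihood test of edgeR, adjusted by the Benjamini-Hochberg method across the genes tested. A gene counts as changed where the adjusted p was under 0.05 and the log2 fold change over 0.5 in size.

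Psmb9 was at 102, 147, 74.4 and 97.5 CPM in PBS and at 224, 259, 245, 224 and 255 CPM in ICB tumors. Again every ICB tumor lay above every PBS tumor (log2 change 1.20, SE 0.32, adjusted p = 0.00676 by edgeR). Psmb10 was at 115, 147, 105 and 118 CPM in PBS and at 235, 266, 237, 288 and 266 CPM in ICB tumors, also without overlap (log2 change 1.11, SE 0.23, adjusted p = 0.00190 by edgeR). PBS replicate 2 was the highest of the PBS tumors for each of these genes.

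Psme1 was at 252, 323, 226 and 233 CPM in PBS and at 369, 398, 351, 390 and 374 CPM in ICB tumors. The groups were close but did not overlap (log2 change 0.56, SE 0.18, adjusted p = 0.0194 by edgeR). Psme2 was at 258, 344, 203 and 217 CPM in PBS and at 348, 381, 356, 377 and 419 CPM in ICB tumors. PBS replicate 2 lay just below the lowest ICB tumor on this scaling and inside the ICB range on that of the 5-FU matrix alone. Its log2 fold change was 0.57 (SE 0.20, adjusted p = 0.0331 by edgeR). The calls of the 3 catalytic subunits held in all alternatives tried. Those of Psme1 and Psme2 were lost in the fit of the Cisplatin matrix, which holds the same PBS and ICB tumors (edgeR adjusted p = 0.0557 and 0.130), without PBS replicate 3 (adjusted p = 0.0627 and 0.106) and without PBS replicate 4 (adjusted p = 0.0589 and 0.0976). Psme2 alone was also lost in the fit of all 6 groups (adjusted p = 0.0992) and without PBS replicate 1 (adjusted p = 0.0648) or ICB replicate 5 (adjusted p = 0.0627).

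The background matters for these counts. Of all genes tested, 19.0% rose with ICB and 18.8% fell by the same thresholds, and in 16.8% every ICB tumor lay above every PBS tumor, as in 4 of the 5 members. The median log2 fold change was 1.11 over the 5 members and -0.03 over all genes. The rise of Psmb9 stood at the 82.9th percentile of all log2 fold changes and that of Psme1 at the 70.4th, so the members were not among the most changed genes. The retrocopy Psme2b, a near copy of Psme2 on chromosome 11 with which reads can be shared, was at 2.85 to 11.0 CPM in PBS and ICB tumors. With both rows summed, Psme2 stayed a call.

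**Figure D1:**
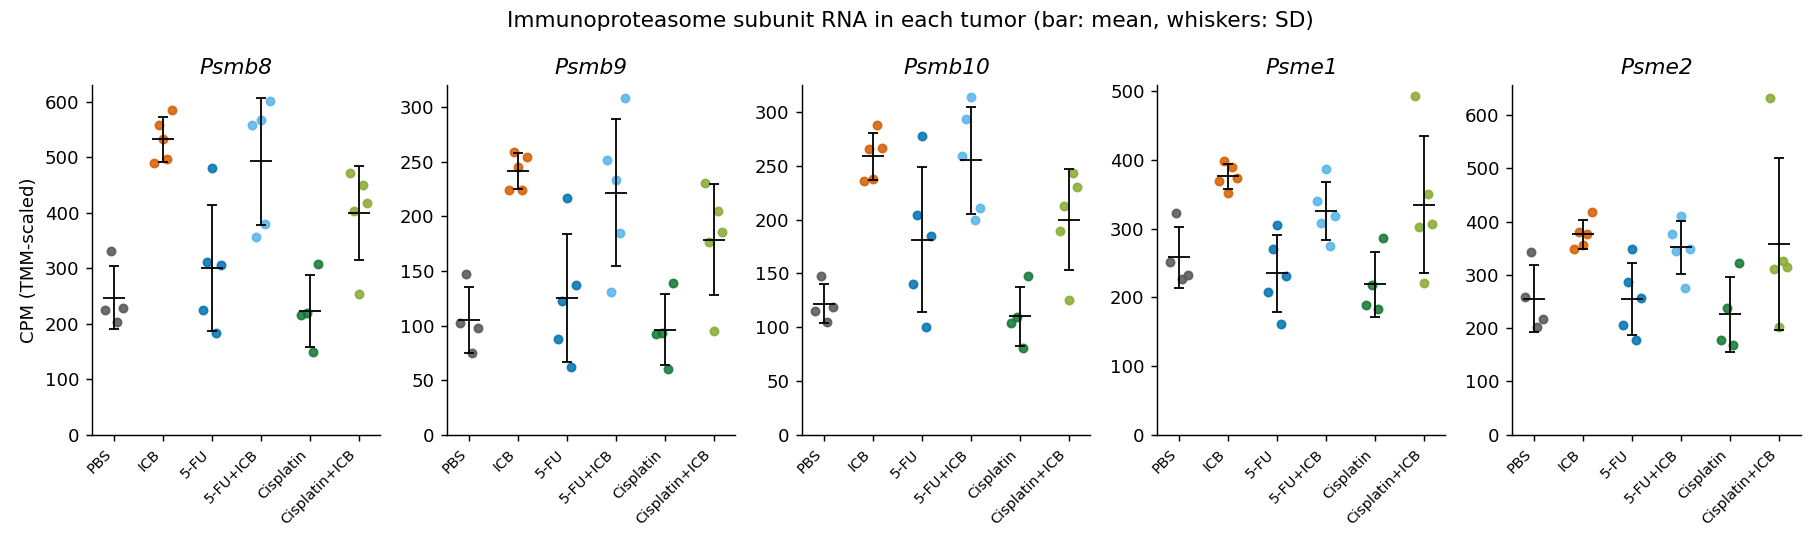
Each point is a tumor, with CPM on the vertical axes from 0 and a panel for each member. Bars give group means and whiskers the SD (n = 4 or 5). The ICB tumors form tight sets, Psmb8 lying between 489 and 584 CPM, while the 5-FU, 5-FU+ICB and Cisplatin+ICB tumors spread more widely, and Cisplatin+ICB replicate 1 stands high for Psme1 and Psme2.

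With 5-FU alone edgeR called no member and DESeq2 called Psmb10. Psmb8 was at 225, 311, 480, 183 and 305 CPM in 5-FU tumors, a range that covers the PBS values. The same held for Psmb9, at 87.5, 123, 217, 62.3 and 137 CPM. Psmb10 was at 140, 205, 278, 99.7 and 185 CPM. In all 3 genes replicate 3 was the highest and replicate 4 the lowest.

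Against PBS the log2 fold change of Psmb10 was 0.58 (SE 0.23, adjusted p = 0.0695 by edgeR). For Psmb8 it was 0.28 (SE 0.25) and for Psmb9 0.25 (SE 0.31). Psme1, at 207, 270, 306, 161 and 232 CPM, and Psme2, at 207, 287, 348, 178 and 256 CPM, had log2 fold changes of -0.14 (SE 0.18) and -0.01 (SE 0.20). By edgeR 0 of 5 members were changed, against 9.98% of all genes higher and 13.0% lower, and 1 had an unadjusted p under 0.05, as had 40.4% of all genes. DESeq2 called 1 member, Psmb10 (log2 fold change 0.64, DESeq2 adjusted p = 0.0332), and 12.6% of all genes higher. Psmb10 was also called with DESeq2's size factors in edgeR, with a minimum of 10 counts in every tumor and without 5-FU replicate 4. For the other members the log2 fold change of Psmb9 turned to -0.05 without 5-FU replicate 3.

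With both 5-FU and ICB, the 3 catalytic subunits rose, and the PA28 subunits did not pass by edgeR. Psmb8 was at 558, 356, 567, 380 and 601 CPM, the lowest of them just above the highest PBS tumor, but inside the PBS range on the scaling of the 5-FU matrix alone (339 against 345 CPM). Psmb9 was at 252, 131, 233, 185 and 308 CPM, and replicate 2 lay within the PBS range. Psmb10 was at 259, 293, 313, 199 and 211 CPM, above all PBS tumors, as were 11.4% of all genes. Replicates 2 and 4 were the lowest for Psmb8 and Psmb9, but replicate 2 was among the highest for Psmb10.

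Against PBS, the log2 fold changes were 1.01 for Psmb8 (SE 0.26, adjusted p = 0.00525 by edgeR), 1.08 for Psmb9 (SE 0.32, adjusted p = 0.0114 by edgeR) and 1.08 for Psmb10 (SE 0.23, adjusted p = 0.00227 by edgeR). Of all genes, 21.9% rose and 18.7% fell. Psme1 was at 340, 308, 388, 275 and 318 CPM (log2 change 0.34, SE 0.18, adjusted p = 0.121 by edgeR). Psme2 was at 376, 346, 411, 276 and 349 CPM (log2 change 0.47, SE 0.20, adjusted p = 0.0687 by edgeR). Both PA28 genes overlapped the PBS tumors. Without PBS replicate 2 both passed (log2 changes 0.50 and 0.67), and Psme2 passed with DESeq2 (log2 change 0.52, DESeq2 adjusted p = 0.0371, where 20.1% of all genes rose), with DESeq2's size factors in edgeR (0.52, adjusted p = 0.0438) and with at least 10 counts in every tumor (0.54, edgeR adjusted p = 0.0327). Without 5-FU+ICB replicate 5 the calls were those of the 3 catalytic subunits, as with it.

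With Cisplatin alone no member was called. Psmb8 was at 215, 219, 150 and 308 CPM, Psmb9 at 92.3, 93.4, 60.1 and 139 CPM, and Psmb10 at 103, 109, 80.8 and 147 CPM. Psme1 was at 189, 218, 183 and 286 CPM and Psme2 at 178, 238, 168 and 322 CPM. Replicate 3 was the lowest and replicate 4 the highest for every member, and all ranges overlapped the PBS tumors.

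The log2 fold changes against PBS ran from -0.23 (Psme1, SE 0.22) to -0.13 (Psmb9, SE 0.27). Neither edgeR nor DESeq2 called any of the 5, and 0 had an unadjusted p under 0.05. Among all genes edgeR called 0%, with 317 genes under an unadjusted p of 0.05, and DESeq2 called 4 genes.

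Cisplatin with ICB gave intermediate levels and 1 call. Psmb8 was at 472, 403, 254, 450 and 418 CPM and Psmb9 at 231, 177, 95.4, 205 and 186 CPM. Psmb10 was at 189, 212, 125, 244 and 230 CPM. Replicate 3 fell inside the PBS range for all 3 genes while the other 4 tumors lay above the PBS tumors.

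Psmb10 rose against PBS (log2 change 0.73, SE 0.20, adjusted p = 0.0415 by edgeR), where 4.70% of all genes rose. Psmb8 (log2 change 0.71, SE 0.22, adjusted p = 0.0640 by edgeR) and Psmb9 (log2 change 0.78, SE 0.26, adjusted p = 0.0813 by edgeR) did not pass. Without Cisplatin+ICB replicate 1, Psmb8 passed (0.69, adjusted p = 0.0321) and Psmb10 stayed a call (0.81, adjusted p = 0.0113). Without Cisplatin+ICB replicate 3 all 3 catalytic subunits passed, and without PBS replicate 2 Psmb8 passed (adjusted p = 0.0451) beside Psmb10. The call of Psmb10 was lost with any other Cisplatin+ICB tumor left out, or without PBS replicate 1, 3 or 4, with adjusted p from 0.0919 to 0.139. It was also lost in edgeR with the replicate block (adjusted p = 0.0799), with no filter (0.0693), with all 6 groups in the model (0.0770) and with the compared groups alone (0.135).

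Psme1 was at 493, 303, 221, 351 and 306 CPM and Psme2 at 633, 311, 203, 327 and 314 CPM in Cisplatin+ICB tumors. Replicate 1 held the highest level of both genes among all 28 tumors. The log2 fold changes were 0.39 (SE 0.21) for Psme1 and 0.50 (SE 0.28) for Psme2, and without replicate 1 they were 0.26 and 0.24. In that tumor the Psme2b row was at 0.106 CPM, against 7.21 to 9.55 CPM in the other 4 Cisplatin+ICB tumors.

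Whether the drugs changed the response to ICB was asked by setting each combination beside ICB, beside its drug and in a test of the interaction. In 5-FU+ICB against ICB tumors, the log2 fold changes of the members ran from -0.21 (Psme1, SE 0.17) to -0.03 (Psmb10, SE 0.22), where 0.229% of all genes were called. Without 5-FU+ICB replicate 5 they ran from -0.28 (Psmb9) to 0.03 (Psmb10). In Cisplatin+ICB against ICB tumors they ran from -0.43 (Psmb9, SE 0.24) to -0.07 (Psme2, SE 0.26), with 0% of all genes called. Psmb8 was lower in all 5 Cisplatin+ICB tumors than in all 5 ICB tumors (log2 change -0.41, SE 0.21, adjusted p = 0.326 by edgeR), as were 1.20% of all genes. Without Cisplatin+ICB replicate 1 the range was -0.51 (Psmb9) to -0.31 (Psmb10), and that of Psme2 was -0.35. No member was called in either comparison by edgeR or DESeq2, and 0 had an unadjusted p under 0.05.

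Beside the drug alone, all 5 members were higher with ICB but none passed. In 5-FU+ICB against 5-FU the log2 fold changes ran from 0.47 (Psme2, SE 0.19) to 0.84 (Psmb9, SE 0.29, edgeR adjusted p = 0.192). In Cisplatin+ICB against Cisplatin they ran from 0.62 (Psme1, SE 0.21) to 0.90 (Psmb9, SE 0.26, edgeR adjusted p = 0.130). All 5 members had an unadjusted p under 0.05 in each, as had 16.6% and 14.2% of all genes, and edgeR called 0.0112% of all genes in the former and 0% in the latter. DESeq2 called 0 members in the former and 4 in the latter, where 3.62% of all genes rose by DESeq2. Leaving out 5-FU replicate 3 or 5-FU+ICB replicate 2 gave 2 calls in the former, and leaving out Cisplatin+ICB replicate 1 or 3 gave 2 or 3 in the latter. Without 5-FU+ICB replicate 5 the log2 fold changes in the former ran from 0.47 (Psme2) to 0.68 (Psmb9). Those in the latter ran from 0.40 (Psme2) to 0.94 (Psmb10) without Cisplatin+ICB replicate 1.

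The interaction, the effect of ICB with the drug minus its effect without, was negative for all 5 members with 5-FU, from -0.61 (Psmb10, SE 0.32) to -0.08 (Psme1, SE 0.24). With Cisplatin it ran from -0.31 (Psmb9, SE 0.37) to 0.10 (Psme2, SE 0.39), and without Cisplatin+ICB replicate 1 it was below 0 for all 5, from -0.39 (Psmb9) to -0.09 (Psme1). By edgeR 0 of 5 members passed in either, 0 had an unadjusted p under 0.05 and DESeq2 called 0, beside 0.0893% and 0% of all genes. For the standard subunits the interaction with 5-FU was positive, 1.09 for Psmb5 (SE 0.26, adjusted p = 0.0665 by edgeR), 0.81 for Psmb6 (SE 0.30) and 0.76 for Psmb7 (SE 0.23), and 0 of these 3 passed, while all 3 had an unadjusted p under 0.05, as had 23.9% of all genes. These comparisons share the PBS and ICB tumors. Between the drugs, 0 of 5 passed in 5-FU against Cisplatin (0.10 to 0.72, with 1 unadjusted p under 0.05, that of Psmb10, against 15.5% of all genes, and 1 call by DESeq2, against 2.83% of all genes higher) or in 5-FU+ICB against Cisplatin+ICB (-0.04 to 0.35, with 0 unadjusted p under 0.05 and 0 called by DESeq2). The shares of all genes called were 0.362% and 0.297%. Without Cisplatin+ICB replicate 1 the latter range was 0.14 (Psme1) to 0.42 (Psmb9), with 0 called.

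Ordered by mean level, Psmb8 was at 532 ± 40.4 CPM (SD, n = 5) in ICB, 493 ± 115 in 5-FU+ICB, 399 ± 85.4 in Cisplatin+ICB, 301 ± 114 in 5-FU, 247 ± 57.2 in PBS and 223 ± 65.3 in Cisplatin tumors. Psmb9 and Psmb10 kept this order, Psmb10 from 259 ± 22.2 in ICB to 110 ± 27.6 in Cisplatin tumors. For Psme1 and Psme2 the Cisplatin+ICB mean (335 ± 99.9 and 358 ± 162) lay above that of 5-FU+ICB (326 ± 41.9 and 352 ± 49.6). That order rested on Cisplatin+ICB replicate 1, without which the means were 295 ± 53.9 and 289 ± 57.6 (SD, n = 4), below those of 5-FU+ICB. Without 5-FU+ICB replicate 5 the mean of Psmb10 was 266 ± 49.9 (SD, n = 4), above that of ICB. By edgeR neighbours in these orders did not pass where they were tested. By DESeq2, Psmb10 in 5-FU against PBS and Psme2 in 5-FU+ICB against PBS did, as given above, and Cisplatin+ICB against 5-FU was not tested.

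The 3 standard catalytic subunits fell with ICB. Psmb5, whose place Psmb8 takes, fell with ICB from 102.5 ± 35.8 CPM (SD, n = 4) in PBS to 51.2 ± 5.34 CPM (SD, n = 5), or by -0.998 on the log2 scale (SE 0.19, adjusted p = 0.00109 by edgeR). Psmb6, the counterpart of Psmb9, fell by 0.63 (SE 0.22, adjusted p = 0.0273 by edgeR) and Psmb7, the counterpart of Psmb10, fell by 0.63 on the log2 scale (SE 0.16, adjusted p = 0.00648 by edgeR). With 5-FU alone, where edgeR called no induced subunit, all 3 fell too: Psmb5 by 0.90 (SE 0.19), Psmb6 by 0.85 (SE 0.22) and Psmb7 by 0.59 (SE 0.16), with edgeR adjusted p of 0.00608, 0.0126 and 0.0170. With 5-FU+ICB, Psmb5 (-0.81, SE 0.19) and Psmb6 (-0.67, SE 0.22) fell and Psmb7 did not pass the size threshold (-0.46, SE 0.16), though it did without 5-FU+ICB replicate 5 (-0.54, edgeR adjusted p = 0.0187). With Cisplatin+ICB the log2 fold changes of the 3 were -0.08 to 0.01 with all tumors, and without replicate 1 all 3 fell, Psmb5 by 1.02, Psmb6 by 0.83 and Psmb7 by 0.70 (edgeR adjusted p = 0.00518, 0.0272 and 0.0126). The summed level of the mesothelial and keratin markers was 334 to 479 CPM in PBS, 147 to 299 CPM in ICB, 174 to 280 CPM in 5-FU, 182 to 303 CPM in 5-FU+ICB, 280 to 382 CPM in Cisplatin and 232 to 905 CPM in Cisplatin+ICB tumors. The sums of ICB, 5-FU and 5-FU+ICB tumors lay below those of PBS, but single markers did not follow the sum. Of the 5 tested, 1 rose and 0 fell with ICB, with 5-FU and with Cisplatin+ICB, and 3 rose, or 2 without 5-FU+ICB replicate 5, and 1 fell with 5-FU+ICB. Their median log2 fold change was 0.21 with ICB, 0.42 with 5-FU and 1.54 with 5-FU+ICB. The part of these cells in the change was not tested. Psme3, which encodes PA28 gamma, an activator found in the nucleus and not induced by interferon gamma, was at -0.35 (SE 0.12) with ICB and under the size threshold.

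**Figure D2:**
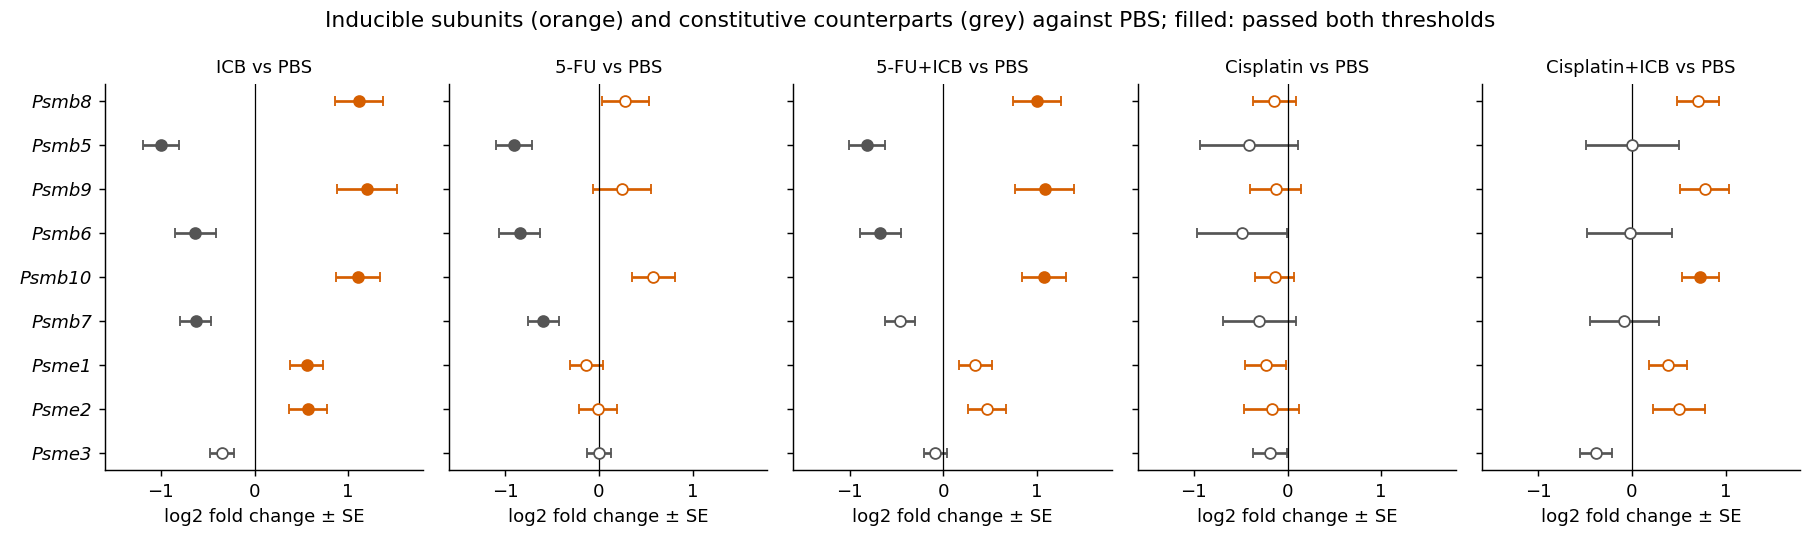
Log2 fold change against PBS on the horizontal axes, with whiskers of 1 standard error. Members are in orange, and the counterparts Psmb5, Psmb6 and Psmb7 of the catalytic members, with Psme3, are in grey. Filled points passed both thresholds. With ICB the catalytic members sit at 1.11 to 1.20 and Psmb5, Psmb6 and Psmb7 at -0.998 to -0.63, while with 5-FU only Psmb5, Psmb6 and Psmb7 are filled.

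Taken per kilobase of the longest annotated transcript, so that genes can be set side by side, Psmb8 was at 152 ± 35.1 CPM per kilobase (SD, n = 4) and Psmb5 at 114 ± 39.8 in PBS tumors. In ICB tumors they were at 327 ± 24.8 and 57.0 ± 5.95 (SD, n = 5). Psmb9 went from 77.9 ± 22.4 to 179 ± 12.2 and its counterpart Psmb6 from 255 ± 112 to 164 ± 14.7 CPM per kilobase. Psmb10 went from 92.7 ± 13.8 to 197 ± 16.9 and Psmb7 from 158 ± 34.2 to 102 ± 13.8. For the last 2 pairs the higher level thus changed from the standard to the induced gene.

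Within each tumor, the log2 ratio of induced to standard subunit, or of Psme1 or Psme2 to Psme3, does not depend on library scaling. Psmb8 over Psmb5 was at 1.18, 1.10, 1.35 and 1.56 in PBS tumors and at 3.40, 3.52, 3.45, 3.23 and 3.29 in ICB tumors. The difference of the means was 2.08 (two-sided exact permutation test p = 0.00794, the smallest that 5 against 4 tumors allow, adjusted p = 0.0437 over 55 tests of 5 ratios in 11 comparisons). Psmb9 over Psmb6 differed by 1.78 and Psmb10 over Psmb7 by 1.72, and Psme1 and Psme2 over Psme3 by 0.92 and 0.95, all without overlap and at the same p. In the alternatives that left out 1 PBS, ICB or 5-FU+ICB tumor, 0 of the 55 ratio tests passed. Fewer tumors raise the smallest p that the exact test allows, to 0.0286 for 4 against 4. Without 5-FU+ICB replicate 5, Psmb8 over Psmb5 still differed from PBS by 1.70 without overlap (exact permutation p = 0.0286, adjusted p = 0.105). For ICB against PBS its difference ran from 2.01 to 2.16 with 1 tumor left out.

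Under 5-FU alone the ratios of the catalytic pairs also lay above PBS. Psmb8 over Psmb5 was at 2.09, 2.25, 3.08, 1.78 and 2.65, above every PBS tumor, and Psmb10 over Psmb7 at 0.27, 0.53, 1.20, -0.19 and 0.66 likewise. The differences were 1.07 in each (exact permutation p = 0.0159, adjusted p = 0.0672), and 0.91 for Psmb9 over Psmb6 (exact p = 0.0397, adjusted p = 0.115). None passed after adjustment. The PA28 ratios differed by -0.15 and by -0.00 (-0.00181 before rounding).

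In 5-FU+ICB tumors Psmb8 over Psmb5 was at 3.37, 2.34, 3.16, 3.13 and 3.28, and the difference from PBS was 1.76 (exact permutation p = 0.00794, adjusted p = 0.0437). Psmb10 over Psmb7 passed at 1.52 with the same p, and Psmb9 over Psmb6 did not (1.64, exact p = 0.0159, adjusted p = 0.0672). The PA28 ratios lay below those of ICB tumors in all 5 tumors, by 0.47 for Psme1 over Psme3 and 0.36 for Psme2 over Psme3 (both exact permutation p = 0.00794, adjusted p = 0.0437), Psme3 itself being at a log2 fold change of 0.26 (SE 0.12) in that comparison.

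Cisplatin+ICB tumors were split. Psmb8 over Psmb5 was at 0.58 in replicate 1 and at 3.23, 2.39, 3.15 and 2.98 in the others. Psmb5, Psmb6 and Psmb7 were at 316, 550 and 427 CPM in replicate 1, higher than in every other tumor, and the other 4 lay between 42.9 and 119 CPM. The difference from PBS for Psmb8 over Psmb5 was 1.17 with all tumors (exact permutation p = 0.0794, adjusted p = 0.168) and 1.64 without replicate 1. For Psmb9 over Psmb6 it was 1.08 and 1.43, and for Psmb10 over Psmb7 1.03 and 1.44. Against ICB tumors Psmb8 over Psmb5 was lower by 0.91 (log2 difference -0.91, exact permutation p = 0.00794, adjusted p = 0.0437), and by 0.44 (-0.44) without replicate 1 (exact permutation p = 0.00794, adjusted p = 0.0397), where the highest Cisplatin+ICB tumor and the lowest ICB tumor were both at 3.23. Psme2 over Psme3 was lower than in ICB tumors by 0.12 (-0.12, adjusted p = 0.856 by the exact permutation test) with all tumors and by 0.52 (-0.52, exact permutation p = 0.00794, adjusted p = 0.0397) without replicate 1. Cisplatin alone differed from PBS by 0.15 to 0.31 in the catalytic ratios.

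**Figure D3:**
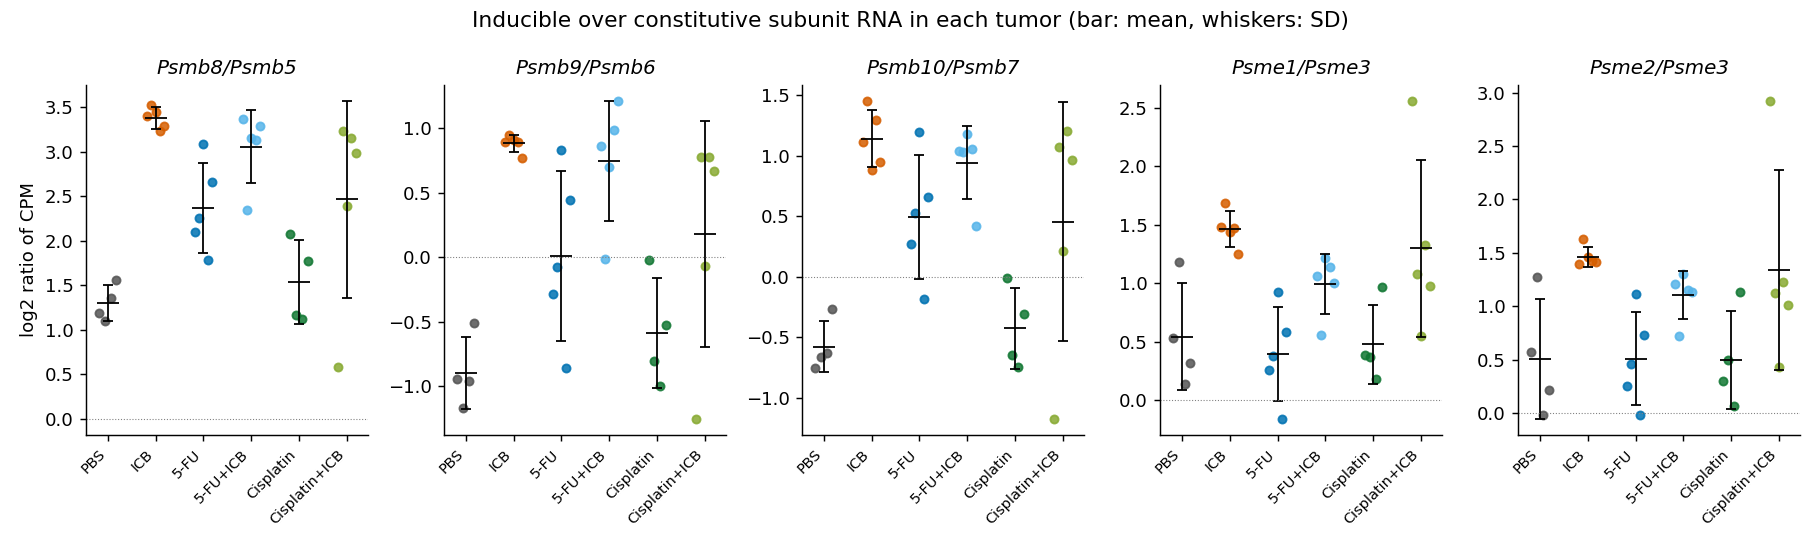
Log2 ratio of the CPM of an induced catalytic subunit to that of its constitutive counterpart, and of Psme1 and Psme2 to Psme3. Tumors are shown by group with means and SD, and the dotted line marks a ratio of 1. ICB tumors lie above all PBS tumors in every panel, and Cisplatin+ICB replicate 1 is the low point of the catalytic panels and the high point of both PA28 panels.

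The rest of the proteasome, where it changed, went down like Psmb5, Psmb6 and Psmb7. Of all genes tested, 18.8% fell with ICB, 13.0% with 5-FU and 18.7% with 5-FU+ICB. Of the 11 other core subunits, 6 fell with ICB and 0 rose, with a median log2 fold change of -0.60, among them Psma7 (-0.76, SE 0.26) and Psmb1 (-0.71, SE 0.22). Of the 18 subunits of the regulatory particle, which recognises ubiquitin and unfolds substrates, 10 fell and 0 rose, led by Psmd13 (-0.89, SE 0.21) and Psmc3 (-0.83, SE 0.19). Of 8 other activators, inhibitors and assembly factors 3 fell, with the assembly chaperones Psmg3 (-1.05, SE 0.21) and Psmg1 (-1.03, SE 0.20) changing most. With 5-FU alone, 8 of the 11 core subunits, 6 of the 18 regulator subunits and 4 of the 8 others fell and 0 rose. With 5-FU+ICB 2, 5 and 3 fell, and the 2 of 11 core subunits are near the share of all genes. In 5-FU tumors other cells' markers moved too: 4 of 6 fibroblast markers rose (summed level 13198 to 20873 CPM against 4826 to 11887 CPM in PBS), as did 3 of 5 endothelial markers (138 to 329 CPM against 64.1 to 126 CPM), and their part in these counts was not tested. Without 5-FU+ICB replicate 5, 7 core subunits fell in place of 2, beside 3205 of 17806 genes tested. With Cisplatin no gene of these lists passed. With Cisplatin+ICB none passed with all tumors, but without replicate 1, 8 of the 11 core subunits, 10 of the 18 regulator subunits and 4 of the 8 others fell and 0 rose, where 17.1% of all genes fell. With DESeq2's size factors in edgeR the medians of the other core subunits, of the regulatory particle and of the standard catalytic subunits stayed below 0 and that of the members above 0, with ICB as with 5-FU.

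Class I loading genes rose with the members. Of 12, 9 rose with ICB and 0 fell (median log2 fold change 1.30), most of all Nlrc5, a transactivator of class I genes (2.09, SE 0.28), and Tapbp, tapasin (1.85, SE 0.25). With 5-FU alone 6 of these 12 rose, Nlrc5 by 1.12 (SE 0.27) and Tapbp by 1.10 (SE 0.25), in tumors where edgeR called 0 of 5 members. With 5-FU+ICB 8 rose, and 7 without replicate 5, and with Cisplatin+ICB 3 rose, and 8 without replicate 1, where 18.2% of all genes rose.

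Of 9 genes of interferon gamma signaling, 7 rose with ICB, led by Ifng itself (5.26, SE 0.57) and Ciita, the class II transactivator (3.85, SE 0.57). With 5-FU 4 rose, including Ifng (2.69, SE 0.52) and Ciita (1.84, SE 0.52), with 5-FU+ICB 8 and with Cisplatin+ICB 5, or 7 without Cisplatin+ICB replicate 1. Ifng was at 0.203 to 0.407 CPM in PBS, 8.32 to 16.4 CPM in ICB and 0.642 to 5.21 CPM in 5-FU tumors. The size of its log2 changes rests on that low PBS level. Of 11 genes of type I interferon signaling 4 rose with ICB, Stat2 (1.32, SE 0.19) and Tyk2 (1.22, SE 0.20) most. With 5-FU 2 rose, with 5-FU+ICB 6 and with Cisplatin+ICB 0, or 3 without Cisplatin+ICB replicate 1. Beside these lists and the class I genes, 19.0% of all genes rose with ICB, 9.98% with 5-FU and 21.9% with 5-FU+ICB. With Cisplatin+ICB 4.70% rose, or 18.2% without replicate 1.

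**Figure D4:**
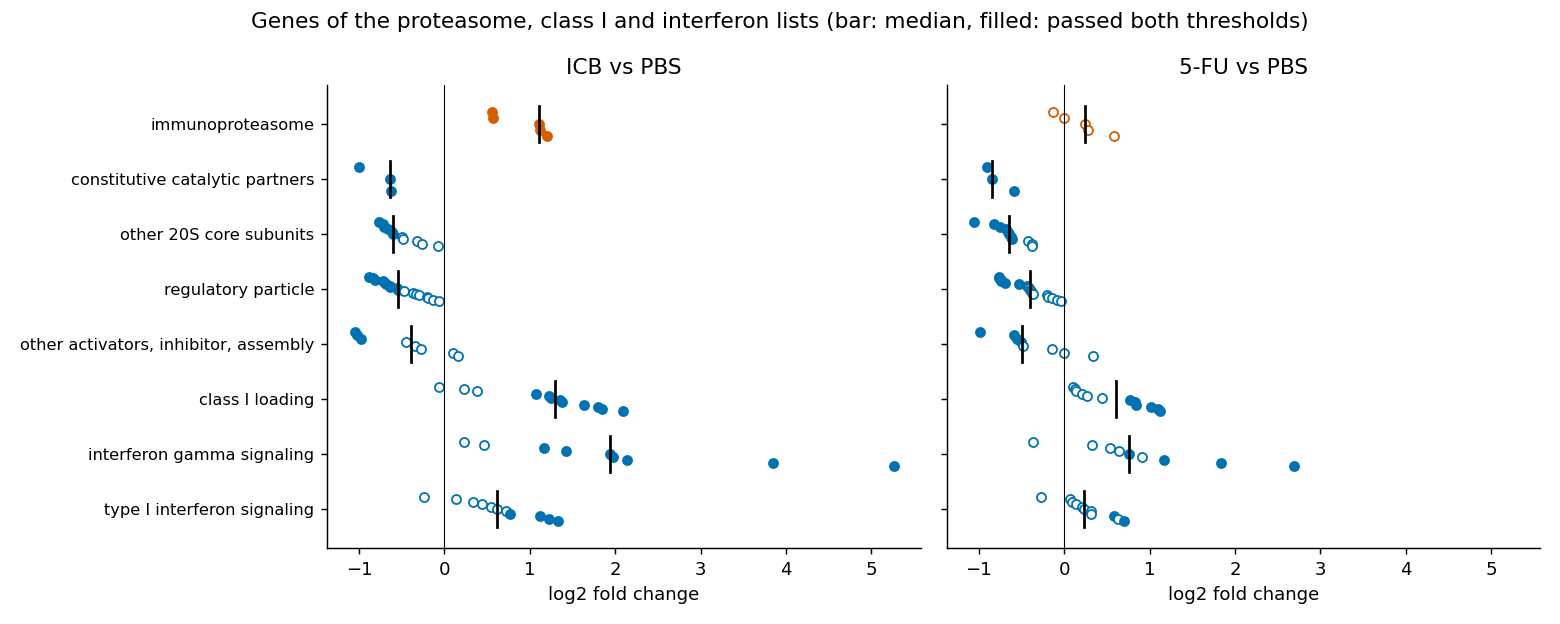
Log2 fold change of each gene in 8 lists for ICB and for 5-FU against PBS, with a bar at the list's median and filled points past both thresholds. With ICB the members lie with the class I and interferon lists to the right of 0 and the other proteasome lists to the left, and with 5-FU the proteasome lists are shifted to the left while no member is filled.

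Leukocyte markers rose with ICB, as did the members, and some rose with 5-FU alone, where edgeR called 0 of 5 members. Of all genes, 19.0% rose with ICB, 9.98% with 5-FU, 21.9% with 5-FU+ICB and 4.70% with Cisplatin+ICB. In each count here 0 markers fell. Of the 5 pan-leukocyte markers 4 rose with ICB, with a summed level of 485 to 653 CPM in PBS and 1266 to 3029 CPM in ICB tumors. All 9 T cell markers (35.8 to 49.4 CPM against 203 to 801 CPM) and all 7 macrophage markers (1614 to 2382 CPM against 3498 to 9735 CPM) rose. No defining marker of these 3 lists was at 0. In 5-FU tumors 1, 6 and 3 of them rose, in 5-FU+ICB 5, 9 and 5, or 4, 9 and 5 without replicate 5, and in Cisplatin+ICB 3, 7 and 1, or 4, 9 and 3 without replicate 1. Of the markers of other cells, 3 of 5 for NK cells, 2 of 4 for monocytes, 2 of 4 for neutrophils, 2 of 6 for dendritic cells, 2 of 5 for endothelium, 0 of 4 for B cells and 0 of 6 for fibroblasts rose with ICB. The part of cell composition in the change of the members was not tested.

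The members were also set against Ptprc, which encodes the leukocyte surface protein CD45, and no difference passed after adjustment. Ptprc rose from 92.1 ± 12.7 CPM (SD, n = 4) in PBS to 365 ± 82.4 CPM (SD, n = 5) in ICB tumors. The log2 level of Psmb8 relative to Ptprc was 1.41 ± 0.18 in PBS and 0.57 ± 0.28 in ICB tumors, a difference of -0.83 (two-sided exact permutation p = 0.0159, adjusted p = 0.0970 over 55 tests). The other members differed by -0.73 (Psmb9), -0.87 (Psmb10), -1.41 (Psme1) and -1.38 (Psme2), each without overlap of the groups and with the same adjusted p. With 5-FU the differences ran from -1.10 (Psme1) to -0.44 (Psmb10). Of the 55 tests 10 had a raw exact permutation p under 0.05 and 0 passed after adjustment.

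Among tumors of the same treatment, the members varied together. Deviations of log2 CPM from the group mean were correlated across 28 tumors at r = 0.98 for Psmb8 and Psmb9, neighbours in the MHC, and at r = 0.97 for Psme1 and Psme2, neighbours on chromosome 14. The other 8 pairs ran from 0.71 (Psmb10 and Psme2) to 0.85 (Psmb8 and Psme1). These values describe tumors that share 6 group means and a common scaling, and are given without a test.

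The deviations were also compared with 4 genes, in 20 relations tested by 100000 permutations within groups and adjusted together; the relations with Irf1, Ifng and Ptprc are given here. Psmb10 followed Irf1, an interferon-induced transcription factor, most closely (r = 0.77, Spearman's rho = 0.81, adjusted p = 0.0002 for both; the raw permutation p = 1e-05 is the smallest they can give). Without the 2 tumors farthest from the median of Irf1, r was 0.81. Psmb9 followed Ptprc (r = 0.70, rho = 0.68, adjusted permutation p = 0.00480 and 0.00780, r = 0.81 without the 2 farthest tumors), as did Psmb8 (r = 0.65, rho = 0.61, adjusted permutation p = 0.00627 and 0.00870). Psmb8 (r = 0.44, rho = 0.38, adjusted permutation p = 0.0961 and 0.127) and Psmb9 (r = 0.39, rho = 0.37, adjusted permutation p = 0.159 and 0.129) did not pass with Irf1. Psmb10 did not pass with Ptprc (r = 0.37, rho = 0.38, adjusted permutation p = 0.191 and 0.152), and r was 0.56 without the 2 farthest tumors.

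With Ifng, Psmb8 (r = 0.58, rho = 0.59), Psmb9 (r = 0.58, rho = 0.62) and Psmb10 (r = 0.59, rho = 0.48) passed by Pearson's r, with adjusted permutation p of 0.00910, 0.0138 and 0.0164, Psmb10 not by rho (adjusted p = 0.0645). None of the 6 relations of Psme1 and Psme2 with Irf1, Ifng and Ptprc passed, with r from 0.13 to 0.34 and rho from 0.18 to 0.44.

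Cisplatin+ICB replicate 1 was among the 2 farthest tumors in each of these relations. In it Ifng was at 0.848 CPM, against 0.913 to 12.4 CPM in the other Cisplatin+ICB tumors. Without the 2 farthest tumors, the correlation with Irf1 was 0.58 for Psme1 and 0.47 for Psme2, in place of 0.34 and 0.22. With Ifng it was 0.42 for Psme1 and 0.34 for Psme2, in place of 0.23 and 0.13. With Ptprc it was 0.48 for both, in place of 0.22 and 0.15.

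**Figure D5:**
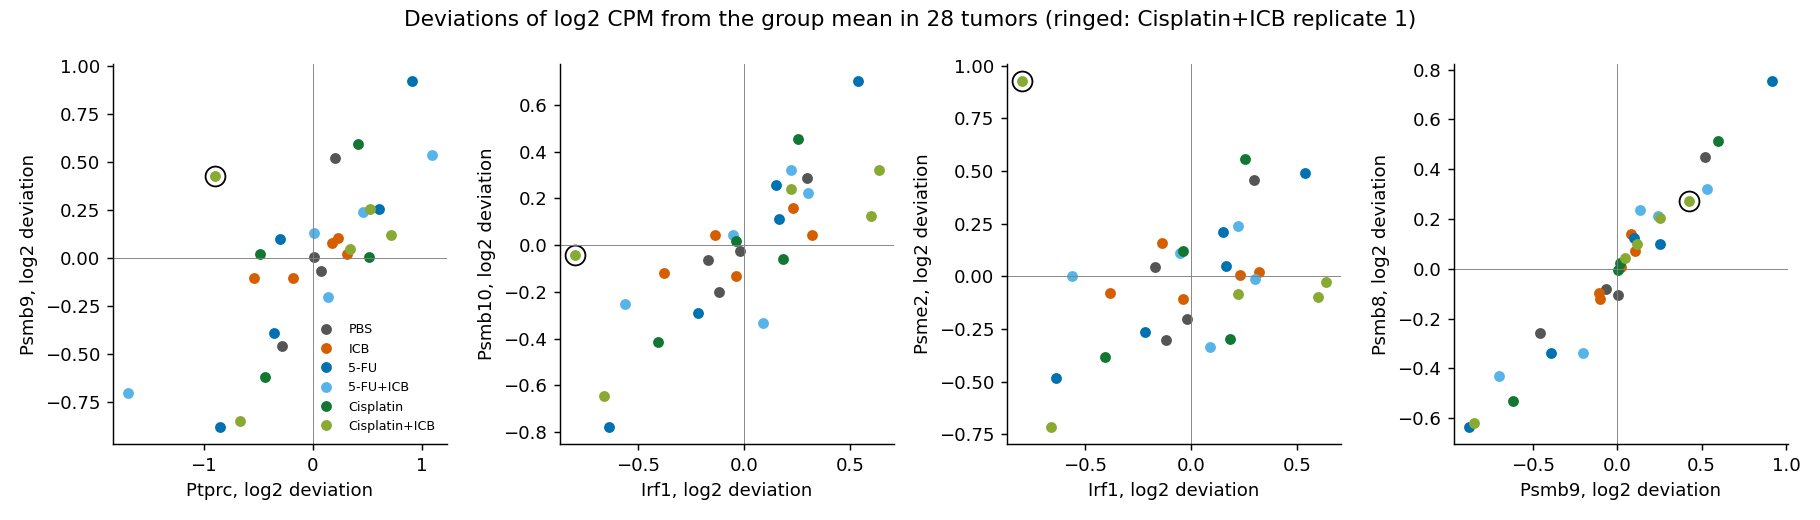
Deviation of log2 CPM from the group mean in 28 tumors, colored by group, for Psmb9 against Ptprc, Psmb10 against Irf1, Psme2 against Irf1 and Psmb8 against Psmb9. The ringed tumor, Cisplatin+ICB replicate 1, lies off the trend for Psmb9 with Ptprc and for Psme2 with Irf1, is the lowest in Irf1, and lies on the common line of Psmb8 and Psmb9 (r = 0.98).

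The genes most like the members were ranked by Pearson's r of log2 CPM with the mean of the 5 standardised members, among 13329 other genes with a mean count of at least 50. Over the 28 tumors the first 10 were Pla2g16 (r = 0.95), Idnk (0.94), Ifi47 (0.94), H2-T23 (0.94), Cd40 (0.93), Scly (0.92), Mcub (0.92), Il13ra1 (0.92), Serpinb9 (0.92) and Tmbim4 (0.91). Ifi47 is an interferon-induced GTPase, H2-T23 a nonclassical class I molecule, Cd40 a costimulatory receptor of antigen-presenting cells and Serpinb9 an inhibitor of granzyme B. By deviations from the group means the first 10 were Ifi47 (0.90), Idnk (0.90), Pla2g16 (0.89), Il13ra1 (0.88), H2-M3 (0.88), Nampt (0.88), Gm11127 (0.86), Scly (0.86), H2-T23 (0.85) and Tmbim4 (0.85), and 7 genes stood in both. Tap1, which overlaps Psmb9, ranked 246 by tumors (r = 0.80) and 1978 by deviations (r = 0.48). Psmb5 was at r = 0.01 over the 28 tumors and 0.48 by deviations, and Psme3 at -0.47 and -0.36. These are correlations over the same tumors, which share group means, and are given as a description.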

How the data were processed

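Bulk RNA from 28 tumors was sequenced as 100-base single-end reads per the study's methods. The authors deposited estimated counts per gene (expected counts, kallisto 0.46.0 with tximport, GRCm38 or mm10 per the submitters' processing notes) in 2 matrices of 19 and 18 tumors that share 9 tumors with identical values. Pseudoalignment divides reads shared by similar transcripts, so genes with copies, such as Psme2 and Psme2b, are uncertain. The counts were rounded to whole numbers before testing.

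Samples were grouped by their labels. edgeR 4.0.16 (R 4.3.3) was run with filterByExpr, TMM and the quasi-likelihood test on all groups of a matrix (17916 and 17819 genes; 18521 for the matrices joined), with Benjamini-Hochberg adjustment over all genes tested. A change needed an adjusted p under 0.05 and a log2 fold change over 0.5. Log2 CPM used a prior count of 2. Ratios and levels relative to Ptprc were compared by two-sided exact permutation tests. The genes named are the members, the 2 changed genes with the largest change in each proteasome, class I and interferon list, and the 10 most like the members. Members and lists were chosen with earlier results of these data known. The edgeR test of ICB against PBS was tried on simulated counts. The permutation tests and DESeq2 were not run on simulated data.

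Alternatives were DESeq2 1.42.0, its size factors, no filter, at least 10 counts in every tumor, a replicate block, other sets of groups in the model, no fold threshold, each tumor left out in turn, a prior count of 0.5, a pan-leukocyte reference and, chosen after seeing the data, Psme2 and Psme2b summed and the gene lists and group means without each of 2 tumors that stood apart. Gene positions come from GENCODE M21 and promoters from RefSeq. The number of tumors limits precision here. Read files and flow cytometry were not used here.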

Additional observations from a re-analysis of the deposited data

Results flagged for a closer look

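In 60 sets of 4 or 5 tumors (5 members and 5 ratios in 6 groups), 5 held a tumor whose gap to its nearest neighbour was large for the range of its group by Dixon's criterion, and chance gives about 1 in 20. The log2 CPM of Psmb8 in Cisplatin+ICB replicate 3 was 7.99, and the other 4 tumors lay from 8.65 to 8.88. The log2 ratio of Psmb8 to Psmb5 in 5-FU+ICB replicate 2 was 2.34, below a range of 3.13 to 3.37 in the others. The log2 ratio of Psme2 to Psme3 was also low in that tumor, at 0.72 against 1.14 to 1.30. The log2 ratio of Psmb10 to Psmb7 was low in another tumor, 5-FU+ICB replicate 5, at 0.42 against 1.03 to 1.18. The log2 ratio of Psme2 to Psme3 in ICB replicate 2 was 1.63, above a range of 1.39 to 1.46 in the other ICB tumors.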

How the results depend on the processing

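The number of members called for 5-FU+ICB against ICB, Cisplatin against PBS, Cisplatin+ICB against ICB, 5-FU+ICB against Cisplatin+ICB and both interactions was 0 under every alternative run. For ICB against PBS it was 5, was 3 in the fit of the Cisplatin matrix, and ran from 3 to 5 with 1 tumor left out. Psme2 was also lost there with all 6 groups in the model. For 5-FU against PBS it was 0, but 1 with DESeq2, with DESeq2's size factors and with at least 10 counts in every tumor, and 0 to 1 with 1 tumor left out. For 5-FU+ICB against PBS it was 3, but 4 with DESeq2, with DESeq2's size factors and with at least 10 counts in every tumor, and 3 to 5 with 1 tumor left out, and for 5-FU+ICB against 5-FU 0, and 0 to 2. For Cisplatin+ICB against PBS it was 1, but 3 with DESeq2, 2 with at least 10 counts in every tumor, 0 with no filter, with all 6 groups in the model and with the compared groups alone, and 0 to 3 with 1 tumor left out. For Cisplatin+ICB against Cisplatin it was 0, but 4 with DESeq2 and 0 to 3 with 1 tumor left out, and for 5-FU against Cisplatin 0, but 1 with DESeq2. The number of ratio tests passed was 10, and 0 to 11 with 1 tumor left out, where the smallest p that the exact test allows can rise, as given above. The causes of the changes in the number of members called were not tested. For the interactions and the comparisons between drugs the alternatives were run on the number of members called, and single log2 differences only without Cisplatin+ICB replicate 1 or 5-FU+ICB replicate 5.

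The mice differed and the replicate numbers share only a number: of 66 same-numbered pairs, 23 had deviations correlated above 0.1, from -0.78 to 0.75. With the replicate block, 0 members were called for Cisplatin+ICB against PBS, and the other counts of called members did not change.

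None of the members' log2 differences that turned sign was a call with all tumors. Psme2 in 5-FU against PBS was at 0.050 with DESeq2, 0.054 with its size factors, 0.12 with no filter, 0.069 with at least 10 counts in every tumor, 0.048 with the compared groups alone and 0.00187 with Psme2b summed, and ran from -0.15 to 0.20 with 1 tumor left out. In the same comparison and with 1 tumor left out, Psme1 ran from -0.25 to 0.023, Psmb9 from -0.049 to 0.49, Psme1 over Psme3 from -0.28 to 0.067 and Psme2 over Psme3 from -0.18 to 0.25. In 5-FU+ICB against ICB, Psmb9 ran from -0.28 to 0.028 and Psmb10 from -0.11 to 0.037. In Cisplatin against PBS, Psmb8 ran from -0.37 to 0.027, Psmb9 from -0.39 to 0.075 and Psme2 from -0.42 to 0.0044. In Cisplatin+ICB against ICB, Psme2 was at 0.00188 with the compared groups alone and ran from -0.35 to 0.079. Without Cisplatin+ICB replicate 1, Psme1 and Psme2 in 5-FU+ICB against Cisplatin+ICB turned from -0.04 and -0.02 to 0.14 and 0.28, their ratios to Psme3 there from -0.30 and -0.24 to 0.01 and 0.16, and their interactions with Cisplatin from 0.07 and 0.10 to -0.09 and -0.18.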
